A study of Homo sapiens with 2 samples.

Results

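Hyaluronan is a long, unbranched sugar polymer of the extracellular matrix, and cells control it through the enzymes that make it, the proteins that cut it and the receptors that bind it. Synthases at the plasma membrane build the chain from UDP-sugars and push it out of the cell. Outside the cell it is cut by hyaluronidases, and CEMIP takes part in its breakdown. Receptors, of which CD44 is the best known, hold it at the surface and take part in its uptake. High hyaluronan and high CD44 are well known features of aggressive breast cancer cells, and MDA-MB-231 is widely used to study them.

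The genes followed were 6 of the 36601 in the feature table. These were the synthases HAS2 and HAS3, the receptor CD44, and CEMIP, CEMIP2 and HYAL2, which are listed here as hyaluronidases and depolymerases. They were chosen by name, with their levels, the share of cells in which they were detected and their variation with CEMIP already known from these data, so all values below are descriptions and no test was made on them. The study grew cells with homocysteine in place of methionine, and asked what expression programmes go with the gain of growth on homocysteine. The libraries were of MDA-MB-231, an established triple-negative breast cancer cell line. D21 revertant cells had been cultured for 21 days without methionine, with 100 µM homocysteine and 1.5 µM vitamin B12, and D0 parental cells had been kept with 100 µM methionine. The vitamin B12 content of the D0 medium is not given for this library. The published methods describe a custom RPMI medium with dialyzed serum and antibiotics, from which methionine was left out for homocysteine cultures. For routine culture of this line they give RPMI-1640 with serum and antibiotics. They do not state which of these media the D0 cells of this library were in. Each was 1 single-cell library made with a 3' kit, so that cells are not replicates, no p-value can be given, and a difference between culture conditions cannot be told apart from a difference between cultures or library preparations.

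After filtering, 12487 D21 cells and 7492 D0 cells remained, with 182839048 UMIs at D21 and 183098116 UMIs at D0. A UMI is a unique molecular identifier, and each stands for 1 captured transcript. The median cell held 12022 UMIs at D21 and 18908 UMIs at D0, and the median mitochondrial share was 6.61% at D21 and 5.75% at D0. The libraries shared 21 cell barcodes, 0.168% of the D21 cells and 0.280% of the D0 cells. The cell line label was checked against markers. The 6 markers of the line, VIM and CD44 among them, all passed 20 CPM (a gene's UMIs over all cells, scaled so that the UMIs of all genes there sum to 1e6) and summed to 7339 CPM at D21 and 9131 CPM at D0. The 6 genes that should be low or absent, such as ESR1 and EPCAM, stayed under 20 CPM and summed to 24.6 CPM at D21 and 25.2 CPM at D0. Fibroblast, endothelial and blood markers each summed to under 10 CPM in both libraries.

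Levels are in CPM over all cells of a library, with an exact Poisson interval. Ratios are D21 over D0 with an exact conditional interval, and shares of cells have exact binomial (Clopper-Pearson) intervals. All are 95% intervals and cover counting error only. Because D21 cells were shallower, shares are also given with every cell thinned at random to the same number of UMIs, the UMI minimum of D21 cells (equal depth). Levels are compared within a gene, not between genes.

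Promoter sequences are shown first, as a description of the genes, and a link between their letters and the counts was not tested. Of the 6 genes, 5 matched an entry of the RefSeq promoter table, which holds 250 bases before and 50 bases after each start in GRCh38.p14, written 5′ to 3′ on the strand of the gene. The 4 printed are CEMIP (chr15:80779120-80779419, plus strand), CEMIP2 (chr9:71768464-71768763, minus strand), CD44 (chr11:35138921-35139220, plus strand) and HYAL2 (chr3:50322696-50322995, minus strand), which were the more deeply counted genes among those matched. Capitals mark matches, on either strand, to any of 5 motifs, namely the TATA box (TATAAA), the AP-1 site (TGANTCA), the TEAD site (GGAATG), the hypoxia-response core (ACGTG) and the GC box (GGGCGG).
CEMIP: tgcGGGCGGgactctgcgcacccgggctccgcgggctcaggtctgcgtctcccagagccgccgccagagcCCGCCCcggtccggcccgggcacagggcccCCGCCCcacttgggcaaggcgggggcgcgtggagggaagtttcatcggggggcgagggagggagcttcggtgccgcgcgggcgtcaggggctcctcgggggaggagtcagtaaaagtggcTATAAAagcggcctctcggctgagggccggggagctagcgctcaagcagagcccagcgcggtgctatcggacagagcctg
CEMIP2: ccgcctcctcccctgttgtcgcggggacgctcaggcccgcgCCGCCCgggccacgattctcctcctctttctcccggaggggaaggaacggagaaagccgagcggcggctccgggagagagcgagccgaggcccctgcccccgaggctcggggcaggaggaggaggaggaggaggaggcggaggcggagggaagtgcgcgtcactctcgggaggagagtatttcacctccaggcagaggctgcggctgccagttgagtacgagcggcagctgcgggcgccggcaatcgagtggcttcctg
CD44: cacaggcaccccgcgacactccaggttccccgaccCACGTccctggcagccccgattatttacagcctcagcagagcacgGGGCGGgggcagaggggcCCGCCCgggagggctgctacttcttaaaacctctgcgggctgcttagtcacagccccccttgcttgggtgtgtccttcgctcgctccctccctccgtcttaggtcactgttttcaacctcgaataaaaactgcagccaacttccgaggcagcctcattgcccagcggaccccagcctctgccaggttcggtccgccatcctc
HYAL2: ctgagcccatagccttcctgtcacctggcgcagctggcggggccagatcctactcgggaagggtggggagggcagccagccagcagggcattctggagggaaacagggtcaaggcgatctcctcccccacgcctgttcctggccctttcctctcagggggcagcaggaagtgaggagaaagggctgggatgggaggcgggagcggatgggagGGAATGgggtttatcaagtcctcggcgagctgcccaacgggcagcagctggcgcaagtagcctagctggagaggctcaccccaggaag

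Among these 4 promoters, TATAAA was found in that of CEMIP alone, starting 30 bases before the start site, a sequence that 11.5% of the 35116 promoters of the table hold. CEMIP also had 3 GC boxes, CD44 had 2 and CEMIP2 had 1, and a GC box is in 45.0% of all promoters. The ACGTG core was in CD44, and in 21.4% of all promoters. GGAATG was in HYAL2, and in 14.0% of all promoters. The AP-1 letters, in 7.71% of all promoters, were in none of the 4. The CEMIP promoter was 73% G and C, against a median of 58.7% over all promoters. These matches describe the letters of the window only. The CEMIP2 window lies inside the GENCODE span of that gene, 71683366 to 71816690, and not at its 5′ end. CEMIP2 has 13 annotated transcripts, and which start these cells use was not tested.

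Of the synthases, HAS2, which makes long hyaluronan chains, was the one detected at an appreciable level, and it was higher at D21. HAS2 lies at chr8:121612116-121641390 on the minus strand of GRCh38. It had 2790 UMIs at D21 and 2054 UMIs at D0, which is 15.3 CPM (14.7 to 15.8) at D21 and 11.2 CPM (10.7 to 11.7) at D0, a ratio of 1.36 (1.28 to 1.44). The intervals of the levels do not overlap, though they cover counting error only. Of the 6867 genes that reached 20 CPM in 1 library or both, 97.6% had a lower ratio than HAS2, which itself did not reach it. A HAS2 UMI was seen in 13.0% of D21 cells and 14.1% of D0 cells as sequenced, and in 6.26% (5.84 to 6.70%) of D21 cells and 4.69% (4.22 to 5.19%) of D0 cells at equal depth. HAS2-AS1, the noncoding gene on its opposite strand, was at 4.94 CPM at D21 and 5.53 CPM at D0. Whether the counting used strand is not stated in the sources used here.

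HAS3, which makes shorter chains, was barely detected, with 59 UMIs at D21 and 66 UMIs at D0. Its level was 0.323 CPM at D21 and 0.360 CPM at D0, and the ratio of 0.895 had an interval of 0.619 to 1.29, so no difference was detectable at this depth. The related synthase HAS1 had 11 UMIs at D21 and 7 UMIs at D0. HAS2 thus supplied nearly all synthase UMIs in both libraries, where the 3 synthases summed to 15.6 CPM at D21 and 11.6 CPM at D0.

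CEMIP, a secreted hyaluronan-binding protein needed for hyaluronan depolymerization in fibroblasts, was higher at D21 and was detected in a minority of cells in both libraries. The gene lies at chr15:80779343-80951776 on the plus strand and overlaps MESD on the opposite strand, which was at 81.0 CPM at D21 and 80.5 CPM at D0. CEMIP had 17181 UMIs at D21 and 13993 UMIs at D0, which is 94.0 CPM (92.6 to 95.4) at D21 and 76.4 CPM (75.2 to 77.7) at D0, a ratio of 1.23 (1.20 to 1.26). It was seen in 33.2% of D21 cells and 25.7% of D0 cells, and at equal depth in 21.7% (21.0 to 22.5%) of D21 cells and 14.2% (13.4 to 15.0%) of D0 cells. CEMIP was therefore more widely detected at D21. Positive cells held on average 2.35 CEMIP UMIs at D21 and 2.61 at D0 at equal depth, and 4.14 at D21 and 7.26 at D0 as sequenced, in cells that were shallower at D21. The highest cell held 54 CEMIP UMIs at D21 and 104 at D0.

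Free RNA in droplets can give a UMI to a cell that does not express the gene, so CEMIP was also read in cells that carry AGR2 and no serum amyloid UMI, a state in which CEMIP had been seen to be low. There it was at 8.61 CPM (6.76 to 10.8) at D21 and 7.45 CPM (5.88 to 9.31) at D0 after thinning, and in 3.03% of the 1586 D21 cells and 2.88% of the 1907 D0 cells. These cells had a median of 9349 UMIs at D21 and 16138 UMIs at D0 before thinning. As this group was chosen for its low CEMIP, its values are a description. In barcodes with 1 to 100 UMIs, which are mostly empty droplets, CEMIP was at 59.9 CPM at D21 and 44.2 CPM at D0, and the part of free RNA in the CEMIP shares was not tested.

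CEMIP2, a transmembrane relative of CEMIP, lay at chr9:71683366-71816690 on the minus strand. Its UMIs summed over all cells hardly differed between the libraries. It had 3259 UMIs at D21 and 3336 UMIs at D0, or 17.8 CPM (17.2 to 18.4) at D21 and 18.2 CPM (17.6 to 18.8) at D0. The ratio was 0.978 with an interval of 0.932 to 1.03, so in these sums no difference was detectable beyond counting error. Over thinned cells, which weights each cell equally, CEMIP2 was at 17.9 CPM at D21 and 20.1 CPM at D0, a ratio of 0.892. Its ratio also differed between groups of cells, as given below. At equal depth it was seen in 8.67% of D21 cells and 9.68% of D0 cells.

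HYAL2, a hyaluronidase anchored at the cell surface, was lower at D21. It lies at chr3:50317790-50322906 on the minus strand. It had 3387 UMIs at D21 and 5369 UMIs at D0, or 18.5 CPM (17.9 to 19.2) at D21 and 29.3 CPM (28.5 to 30.1) at D0, a ratio of 0.632 (0.605 to 0.660). At equal depth it was seen in 9.70% (9.18 to 10.2%) of D21 cells and 14.8% (14.0 to 15.6%) of D0 cells. HYAL2 overlaps TUSC2 on the same strand, so reads of the pair may be split and its value is uncertain. In barcodes with 1 to 100 UMIs HYAL2 was at 18.5 CPM at D21 and 21.6 CPM at D0. TUSC2 was at 56.0 CPM at D21 and 53.9 CPM at D0. The neighbouring HYAL3, another hyaluronidase, was at 1.73 CPM at D21 and 2.57 CPM at D0.

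CD44, the main cell surface receptor of hyaluronan, was higher at D21 and detected in most cells. It lies at chr11:35138870-35232402 on the plus strand. It had 75908 UMIs at D21 and 57215 UMIs at D0, or 415 CPM (412 to 418) at D21 and 312 CPM (310 to 315) at D0, a ratio of 1.33 (1.31 to 1.34). As sequenced, 92.7% of D21 cells and 91.8% of D0 cells held a UMI. At equal depth the shares were 81.1% (80.5 to 81.8%) at D21 and 68.4% (67.3 to 69.4%) at D0. The antisense gene CD44-AS1 was at 3.13 CPM at D21 and 1.20 CPM at D0, and AL133330.1, an overlapping gene on the same strand, was at 2.58 CPM at D21 and 1.62 CPM at D0. Counting at the 3' end does not tell the splice forms of CD44 apart.

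The size of these differences was set against all genes. Of the 6867 genes that reached 20 CPM in 1 library or both, 4.59% differed by at least 1.5-fold, 1.12% being higher and 3.47% lower at D21. Only 3 of the 6 genes reached 20 CPM, and 1 of these 3, HYAL2, was past 1.5-fold, while CEMIP and CD44 were not. HYAL2 passed this filter through D0 alone, at 18.5 CPM at D21 and 29.3 CPM at D0. Its being counted here thus depends on the library where it was higher. CEMIP2, HAS2 and HAS3 stayed under 20 CPM in both libraries and none of them was past 1.5-fold. Of the 6867 genes, 2.39% had a lower ratio than HYAL2, whereas 92.6% had a lower ratio than CEMIP and 96.9% a lower ratio than CD44. With 1 library per condition these shares describe the pair of libraries and give no measure of change between cultures.

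The other genes of the pathway were read as lists, leaving out those under 20 CPM in both libraries. The median log2 ratio of all 6867 genes was -0.003. Of 57 list genes, the 6 followed here included, 25 were measured at this level, 10 being higher and 15 lower at D21, and their median log2 ratio was -0.05.

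All 3 measured receptors were higher at D21, and their median log2 ratio was 0.22. Besides CD44 these were LAYN, which encodes the hyaluronan receptor layilin, at 48.2 CPM at D21 and 41.4 CPM at D0, and HMMR, which also serves in the mitotic spindle, at 22.2 CPM at D21 and 20.9 CPM at D0. TLR4, a pattern receptor that can respond to hyaluronan fragments, was under the filter at 10.2 CPM at D21 and 10.1 CPM at D0. None of the 3 measured receptors was past 1.5-fold.

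Of the enzymes that complete hyaluronan breakdown in lysosomes, HEXA and GUSB were lower at D21. HEXA, a beta-hexosaminidase subunit, was at 31.6 CPM at D21 and 38.4 CPM at D0. GUSB, beta-glucuronidase, was at 30.2 CPM at D21 and 44.7 CPM at D0, a ratio of 0.675 (0.653 to 0.699). These lysosomal enzymes thus lay on the same side of 1 as HYAL2, and opposite to CEMIP.

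The enzymes that make the UDP-sugar precursors were mixed. Of 12, 11 were measured, 3 being higher and 8 lower at D21, and their median log2 ratio was -0.11. GPI, which interconverts glucose and fructose phosphates, was at 130 CPM at D21 and 189 CPM at D0. PGM1, a phosphoglucomutase, was at 70.3 CPM at D21 and 102 CPM at D0. In contrast UGP2, which makes UDP-glucose, was at 69.7 CPM in both libraries, and UAP1, which makes UDP-N-acetylglucosamine, was at 99.3 CPM at D21 and 93.0 CPM at D0. GPI and PGM1 also belong to general sugar metabolism, and no enzyme of this list was past 1.5-fold.

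Among 9 genes for linkers, sheddases and a ligand of CD44, 6 were measured, 3 higher and 3 lower, and their median log2 ratio was 0.06. EZR, which encodes ezrin and ties CD44 to actin, was at 224 CPM at D21 and 184 CPM at D0. Its relative MSN, moesin, was lower at D21, at 217 CPM at D21 and 261 CPM at D0, and RDX, radixin, was at 214 CPM at D21 and 221 CPM at D0. ADAM10, a protease that sheds CD44, was at 85.5 CPM at D21 and 75.5 CPM at D0. MMP14, a membrane protease that also cuts CD44, was the other list gene past 1.5-fold, at 20.2 CPM at D21 and 39.3 CPM at D0, a ratio of 0.513 (0.493 to 0.534). None of the 15 hyaluronan-binding matrix proteins was measured at 20 CPM, and together they summed to 4.50 CPM at D21 and 4.45 CPM at D0.

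CEMIP was far more unevenly spread over cells than most genes of its level. At equal depth 10.6% of D21 cells and 6.94% of D0 cells held 1 CEMIP UMI, and 1.57% of D21 cells and 1.60% of D0 cells held 6 or more. The tenth of cells with the most CEMIP held 74.8% of its UMIs at D21 and 88.7% at D0. That share depends on how many cells hold any UMI, and is no measure of unevenness by itself. For HYAL2, seen in fewer cells at D21, it was 100% there. The variance over the mean, which is 1 when UMIs fall at random over cells, was 3.90 at D21 and 5.05 at D0. Among genes within 1.3-fold of its mean, 3 of 1027 at D21 and 3 of 1342 at D0 had a larger value, and the median of those genes was 1.10 at D21 and 1.07 at D0.

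HAS2 was also uneven for its level, with a variance over mean of 1.60 at D21 and 1.33 at D0, which 16 of 1766 genes of like level at D21 and 32 of 1560 at D0 exceeded. CD44 had 1.75 at D21 and 1.91 at D0, exceeded by 34 of 182 such genes at D21 and 28 of 279 at D0. HYAL2 was close to random counting, at 1.03 at D21 and 1.04 at D0. CEMIP2 was at 1.16 at D21 and 1.17 at D0, exceeded by 115 of 1849 such genes at D21 and 132 of 1905 at D0. CEMIP and HAS2 were thus the most uneven of these genes for their level. Most HAS2 UMIs were still single ones, as 65.1% at D21 and 71.1% at D0 lay in cells with 1 HAS2 UMI at equal depth.

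Over the cells of a library, CD44 varied with CEMIP, and the other 4 genes had correlations near 0. The Pearson correlation of log2(thinned UMIs + 1) between CEMIP and CD44 was 0.23 over 12487 D21 cells and 0.28 over 7492 D0 cells. Of 6363 genes with at least 20 CPM in both libraries, 0.409% had an r with CEMIP at least as high as CD44 had, in each library. HAS2, HAS3, CEMIP2 and HYAL2 had an r with CEMIP between -0.03 and 0.00 in both libraries, and in counts this sparse such values carry no finding. The cells of a library share their preparation, so these correlations are descriptions with no p-value.

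The genes most like CEMIP over cells, ranked by the lower r of the libraries, were led by TNFSF10, which encodes the death ligand TRAIL, with an r of 0.44 at D21 and 0.52 at D0. Next came HLA-B, an MHC class I heavy chain, with 0.34 at D21 and 0.40 at D0, and NNMT, the nicotinamide N-methyltransferase, with 0.33 at D21 and 0.39 at D0. FN1, which encodes the matrix protein fibronectin, had 0.31 at D21 and 0.42 at D0. PLAAT4, SAA1, EDIL3, SERPINB1 and SERPINB9 were also among the 10 highest. SAA1 encodes serum amyloid A, EDIL3 an integrin-binding matrix protein, and SERPINB1 and SERPINB9 inhibitors of leukocyte proteases. The lowest was HMGA1, a chromatin protein, with -0.32 at D21 and -0.42 at D0, followed by MT2A, STMN1, RPS26 and VIM. CD44 shared the leading genes, with HLA-B (0.29 at D21 and 0.35 at D0), SAA1 (0.26 at D21 and 0.28 at D0) and TNFSF10 (0.26 at D21 and 0.33 at D0) as its highest.

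When cells were grouped by their CEMIP UMIs at equal depth, CD44 was higher in each group with more CEMIP, in both libraries. In D21 cells with 0, 1 to 2, 3 to 5 and 6 or more CEMIP UMIs, CD44 was at 362, 540, 648 and 676 CPM. In D0 cells of the same groups it was at 247, 463, 616 and 738 CPM. The highest group over the lowest was 1.86 (1.73 to 2.01) at D21 and 2.98 (2.72 to 3.27) at D0. The intervals of the top and next groups overlap at D21, so the last step there is within counting error.

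The D21 over D0 ratio of CD44 was 1.47 (1.43 to 1.50) in cells without CEMIP, 1.17 (1.11 to 1.23) with 1 to 2 UMIs, 1.05 (0.966 to 1.15) with 3 to 5 and 0.916 (0.815 to 1.03) with 6 or more. CD44 was thus higher at D21 in the cells with little or no CEMIP, and the libraries were not distinguishable by counting in the cells with most CEMIP. The cells with most CEMIP were few, 196 cells at D21 and 120 cells at D0.

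HAS2, CEMIP2 and HYAL2 were not higher in each group with more CEMIP. HAS2 was between 14.5 and 16.9 CPM in all 4 D21 groups, and its D0 values of 10.3, 12.0, 7.61 and 4.61 CPM end on a group with 3 UMIs in all. CEMIP2 was between 16.0 and 20.6 CPM at D21 and between 13.7 and 21.0 CPM at D0. HYAL2 in the cells with 6 or more CEMIP UMIs over those without CEMIP was 0.518 (0.258 to 0.931) at D21 and 0.756 (0.422 to 1.25) at D0. These ratios rest on 11 HYAL2 UMIs at D21 and 15 at D0 in the cells with 6 or more. HYAL2 was lower at D21 than at D0 in every group, with ratios of 0.655, 0.567, 0.653 and 0.449, of which the intervals of the last 2 include 1.

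SAA1 and SAA2, acute-phase serum amyloid genes that share cells with CEMIP, served to group cells without using CEMIP. At equal depth, 50.4% of D21 cells and 79.3% of D0 cells had no SAA1 or SAA2 UMI, and 8.87% of D21 cells and 1.90% of D0 cells had 10 or more. CEMIP in D21 cells with 0, 1 to 2, 3 to 9 and 10 or more SAA UMIs was at 33.3, 118, 164 and 229 CPM. In D0 cells of these groups it was at 34.0, 135, 234 and 453 CPM. CEMIP was therefore higher in each group with more SAA in both libraries, but not at the same pace.

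Within these groups the D21 over D0 ratio of CEMIP was 0.980 (0.901 to 1.07), 0.876 (0.799 to 0.962), 0.701 (0.644 to 0.764) and 0.505 (0.449 to 0.570), so the ratio was above 1 in none of them. Over all thinned cells CEMIP was at 94.1 CPM at D21 and 68.4 CPM at D0, a ratio of 1.38. With the D21 groups weighted by their shares at D0, the D21 level was 56.4 CPM and the ratio 0.826. The direction of the CEMIP ratio thus differed between all cells and the reweighted groups. SAA1 and SAA2 were known to vary with CEMIP in these data, and SAA1 in barcodes with 1 to 100 UMIs was at 513 CPM at D21 and 148 CPM at D0. Whether the SAA groups hold the same kind of cells in both libraries was not tested.

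CD44 had ratios of 1.33 (1.29 to 1.37), 1.06 (1.01 to 1.11), 1.04 (0.987 to 1.11) and 0.876 (0.800 to 0.962) in the same groups, so it was higher at D21 in cells without SAA and lower in those with 10 or more. Weighted by the D0 shares its ratio was 1.22, against 1.42 over all thinned cells. HAS2 kept a ratio above 1 in each group, at 1.24, 1.59, 1.63 and 5.32, the last resting on 2 UMIs at D0. HYAL2 kept a ratio below 1 in each, at 0.667, 0.617, 0.621 and 0.517, and its weighted ratio was 0.655, against 0.635 over all thinned cells. CEMIP2 had a ratio of 0.858 (0.769 to 0.957) in cells without SAA. In the groups with SAA its ratio was 1.26, 1.14 and 1.23, with intervals that include 1. The ratios of CEMIP and CD44 were thus lower in each group with more SAA, and the difference between groups was not tested.

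Cells were also divided by AGR2, which encodes a protein disulfide isomerase of the endoplasmic reticulum. CEMIP was low in cells with AGR2 and no SAA, as given above, and higher in barcodes with both. Cells with both AGR2 and SAA had CEMIP at 62.4 CPM at D21 and 85.6 CPM at D0. They had the most UMIs of these groups before thinning, with a median of 16249.5 at D21 and 34107.5 at D0. No doublet caller was run, and whether they are doublets or carry SAA UMIs from free RNA was not tested. Cells with SAA and no AGR2 had CEMIP at 163 CPM at D21 and 213 CPM at D0, and cells with neither had 41.7 CPM at D21 and 46.6 CPM at D0. CD44 was at 515 CPM at D21 and 496 CPM at D0 in cells with SAA and no AGR2, and at 224 CPM at D21 and 169 CPM at D0 in cells with AGR2 and no SAA. In cells with both, CD44 was at 349 CPM at D21 and 295 CPM at D0. HYAL2 was lower at D21 with SAA alone, at 17.9 CPM at D21 and 31.1 CPM at D0, with AGR2 alone, at 23.4 CPM at D21 and 30.7 CPM at D0, and with neither, at 18.9 CPM at D21 and 29.7 CPM at D0. In cells with both, 458 at D21 and 168 at D0, it was at 20.5 CPM at D21 and 20.9 CPM at D0, a ratio of 0.985 (0.571 to 1.77). CEMIP2 had a ratio of 0.695 (0.565 to 0.852) in cells with AGR2 and no SAA, and its intervals in the other groups include 1.

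Depth per cell moved with CEMIP and CD44 in a way that differed between the libraries. Cells from the D0 minimum upwards were divided at 12000, 16000 and 24000 UMIs. In the deepest range over the shallowest, CEMIP was 0.896 (0.855 to 0.939) at D21 and 2.01 (1.83 to 2.22) at D0, and CD44 was 1.03 (1.01 to 1.06) at D21 and 1.64 (1.58 to 1.72) at D0. The D21 over D0 ratio of CEMIP was 2.52 (2.27 to 2.79), 1.54, 1.11 and 1.12 from the shallowest of 4 ranges to the deepest. That of CD44 was 1.96, 1.69, 1.41 and 1.23. Both genes were thus higher at D21 in every range, most so in the shallow cells.

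HYAL2 was lower at D21 in every range of UMIs, with ratios of 0.566, 0.555, 0.648 and 0.611. HAS2 was not distinguishable in the shallowest range, at 0.976 (0.794 to 1.20), and was higher at D21 in the others, at 1.75, 1.95 and 1.38. CEMIP2 was lower at D21 in the shallowest range, at 0.768 (0.657 to 0.899), and in the other ranges its ratio of 0.938, 0.964 and 0.995 had intervals that include 1.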

How the data were processed

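RNA of D21 and D0 MDA-MB-231 cells was captured with a 3' droplet kit of 10x Genomics (version 3.1), 1 library each. The deposited values are UMI counts per gene and barcode, which the authors made with Cell Ranger 4 on GRCh38 (per the file headers and the submitters' processing notes), not normalized and with empty droplets included. For alignment settings, use of strand and annotation release, nothing is given in the sources used here. The matrices hold 199817213 UMIs at D21 and 199799447 UMIs at D0.

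Cells were barcodes with at least 5422 UMIs at D21 or 9009 UMIs at D0, at least 500 genes and at most 20% mitochondrial UMIs, which removed 38 of 12525 barcodes at D21 and 11 of 7503 at D0. No doublet caller was run. Cells were thinned to 5422 UMIs without replacement for shares, groups of cells and correlations, so that CPM over thinned cells weights each cell equally. Scripts used Python 3.11.15, numpy 2.4.6, scipy 1.17.1, pandas 2.3.3 and matplotlib 3.10.9, and were tested on simulated data. Gene positions are from GENCODE 29 (GRCh38) and promoters from RefSeq (GRCh38.p14).

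The 6 genes and the lists were chosen with earlier results of these data known. Also named were the 10 genes with the highest and the 5 with the lowest correlation with CEMIP, the 3 highest with CD44, and up to 4 genes of each list with the highest CPM, with every list gene of at least 20 CPM past 1.5-fold. Results of some genes that this rule takes are left out here. Neighbouring genes, SAA1, SAA2 and AGR2 are named as context. Alternatives changed the cell filters, scaling, weighting, thinning and CPM minimum.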

Additional observations from a re-analysis of the deposited data

Results flagged for a closer look

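In barcodes with 1 to 100 UMIs, which are mostly empty droplets and enter only the alternative that sums all barcodes, CEMIP was at 59.9 CPM in the D21 library and 44.2 CPM in the D0 library. CD44 in these barcodes was at 312 CPM in the D21 library and 224 CPM in the D0 library. Both genes thus stood in the same order in these barcodes as in the cells, with D21 the higher.

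The D21 over D0 ratio of CD44 differed between cells grouped by serum amyloid UMIs, at 1.33 in cells with 0 SAA1 plus SAA2 UMIs, 1.06 in cells with 1 to 2 and 0.876 in cells with 10 or more. The difference between these groups was not tested, since each rests on 1 library per condition.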

How the results depend on the processing

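Over 54 alternative values of the D21 over D0 ratios, none turned round a ratio whose counting interval excluded 1, and 40 stayed within the counting interval of the value reported. These alternatives do not include the weighting of SAA groups by their D0 shares. Under that weighting the CEMIP ratio was 0.826, against 1.38 over all thinned cells. The ratio of CEMIP was 1.14 with the UMI minimum doubled in both libraries, 1.28 without the 10% of cells with the most UMIs, 1.36 with each cell weighted equally and 1.31 within equal ranges of UMIs per cell. That of CD44 was 1.26, 1.37, 1.41 and 1.45 under the same 4 settings, 1.34 with the D0 minimum of UMIs in both libraries and 1.34 over all barcodes. CEMIP2 was at 0.929 without the 10% of cells with the most UMIs and 0.928 with equal weights, and in 1 of 10 settings its ratio was above 1, at 1.02. HAS2 was at 1.53 and HYAL2 at 0.600 within equal ranges of UMIs. The cause of these shifts was not tested. Correlations with CEMIP kept within 0.05 of the value reported in 37 of 40 cases, and that of CD44 ranged from 0.23 to 0.32 at D21 and from 0.27 to 0.43 at D0.

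The number of genes past 1.5-fold was 315 at a minimum of 20 CPM, 678 at 5 CPM and 7110 with no filter beyond 1 UMI in each library, where fewer UMIs stand behind each ratio. The share of these that were higher at D21 was 24.4% at 20 CPM and 54.8% with no filter. Scaling by the median ratio moved log2 ratios by 0.0016. Alternatives for the share of cells with CEMIP were chosen after seeing the data. It was 29.8% at D21 and 18.0% at D0 when thinned to the D0 minimum, 23.5% at D21 and 18.0% at D0 with the minimum doubled, and 21.2% at D21 and 13.1% at D0 without the 10% of cells with the most UMIs. No paired analysis was possible because each condition had 1 library, and for the same reason no library could be left out. Depth limits HAS3, with 59 UMIs at D21 and 66 at D0.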
